A study of Mus musculus with 12 samples.

Results

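The transcripts described here belong to 10 mouse genes of integrin adhesion and the podosome, picked by symbol from the 24421 genes listed for every library. They are the integrin subunits Itgav and Itgb3, the integrin linkers and adaptors Tln1, Vcl and Pxn, the tyrosine kinases Src and Ptk2b, and the actin-associated genes Cttn, Gsn and Sh3pxd2a. The rule uses the symbols and no measured value, but the symbols were chosen with earlier results of these data known. Member values set beside those of all genes are therefore a description. A member is measured here as counts scaled to 1000000 reads on genes (CPM), and all 10 passed the filter of at least 1 CPM in at least 2 libraries.

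Bone marrow-derived macrophages (BMMs) were flushed from femur and tibia of C57BL/6 mice and grown with M-CSF, the survival factor of the macrophage lineage, for 3 days. In the loss-of-function experiment, BMMs of WT mice (Mir182+/+LysMcre(+)) and of Mir182ΔM/ΔM mice (Mir182flox/floxLysMcre(+)) were left unstimulated or received RANKL, the cytokine that drives macrophages to become osteoclasts, for 5 days. In the gain-of-function experiment, unstimulated BMMs of Control mice (LysMcre(+)) were set against those of Mir182mTg mice (LSL-Mir182LysMcre(+)), in which Cre removes a STOP cassette in front of Mir182 placed at Rosa26. Each of the 6 conditions had 2 libraries, labelled replicate 1 and replicate 2. All 6 groups, controls included, carry LysMcre, whose Cre is driven by the lysozyme M promoter in myeloid cells and not in osteoclast precursors alone. The study calls the replicates biological. The sources used here give neither the age of the mice nor whether a library came from 1 mouse or several.

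Osteoclasts hold on to bone through podosomes, small actin columns that gather into a belt and enclose the surface being resorbed. The integrin αvβ3, encoded by Itgav and Itgb3, binds matrix proteins such as osteopontin in the ring of each podosome, where talin (Tln1), vinculin (Vcl) and paxillin (Pxn) tie it to actin. Src and Pyk2 (Ptk2b) relay the signal of the bound integrin, while cortactin (Cttn), gelsolin (Gsn) and the scaffold Tks5 (Sh3pxd2a) act on the actin core.

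miR-182 is the gene product that was deleted or added, so its mature sequence and the letters that pair with its seed in the members are shown first. The mature sequence of RefSeq, GRCm38.p6 build, lies at chr6:30165962-30165986 on the minus strand, and the capitals mark the seed, bases 2 to 8.
miR-182-5p: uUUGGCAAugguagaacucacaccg
A match was any stretch of an annotated 3′ UTR (GENCODE vM21, GRCm38) that reads TTGCCAA or TGCCAAA, or both overlapped, on the strand of the transcript. Of the 10 members, 3 held a match (30.0%), as did 2291 of the 10894 tested genes with a 3′ UTR (21.03%). The median length of the longest 3′ UTR was 1876.5 bases in the members and 1188 bases in those genes. The matched letters are in capitals, with 10 bases on either side, 5′ to 3′ on the transcript's strand.
Cttn chr7:144436100-144436127, minus strand: tgtgttctttTTGCCAAAtatgttcagt
Cttn chr7:144436689-144436715, minus strand: tgttttagttTTGCCAAgctgactgtg
Tln1 chr4:43531828-43531854, minus strand: ccaaagtgccTGCCAAAccctgggcct
Vcl chr14:21032357-21032383, plus strand: ccttgtttggTTGCCAAggtaaccatc
Vcl chr14:21033387-21033413, plus strand: tatgaatctaTGCCAAAgatcattttt
The match at the first Cttn position joins both letter strings and is the longest type. No match was found in the 3′ UTRs of Itgav, Itgb3, Pxn, Src, Ptk2b, Gsn or Sh3pxd2a. A match describes letters and is no measured binding site.

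The libraries held 24951280 to 33050619 reads on genes, so that 3 reads, the floor used for a count of 0, stand for 0.0908 to 0.120 CPM, counting error only. Mir182 itself had 0 or 1 read in every library except those of Mir182mTg, which had 79 and 123 reads, and such reads do not check the loss of the mature microRNA in Mir182ΔM/ΔM. Lyz2, the lysozyme M gene, set the WT RANKL libraries apart from the rest of their experiment. It stood at 4117 and 4288 CPM in WT with RANKL, at 22.5 to 44.0 CPM in WT without RANKL and in both Mir182ΔM/ΔM groups, and at 5783 to 7062 CPM in Control and Mir182mTg. Every result that uses WT with RANKL rests on these libraries. The rise in WT was therefore also computed against Control, whereas a comparison of the stimulated genotypes without them cannot be made, and the part of the Lyz2 difference in the results was not tested. The LysMcre allele places Cre in the Lyz2 gene itself, and the labels do not say how many copies of it a group carried. Whether the WT mice with and without RANKL had the same LysMcre genotype cannot be told apart from the RANKL effect here, and this holds for the response in WT, the genotype difference after RANKL and the interaction. Of the markers of osteoclasts, 9 in all, the summed level was 39.7 to 75.0 CPM in the unstimulated libraries, 10030 to 10364 CPM in WT with RANKL and 3081 to 3091 CPM in Mir182ΔM/ΔM with RANKL. Calcr, the calcitonin receptor, was at 0 in WT, Mir182ΔM/ΔM, Control and Mir182mTg without RANKL. In bulk samples such as these, fewer cells of a type and less RNA per cell cannot be told apart. The 7 macrophage markers were present in every group and their sum fell with RANKL. In WT 7 of 7 were called lower, beside 22% of all genes tested (summed 8468 to 8655 CPM before and 5684 to 5744 CPM after). In Mir182ΔM/ΔM 4 of 7 were called lower, beside 26.3% (7624 to 7629 CPM before and 6011 to 6097 CPM after). After RANKL 3 of the 7 were higher and 1 lower in Mir182ΔM/ΔM, beside 14.3% and 30.9% of all genes tested. Among the higher ones was the Fc receptor gene Fcgr1 at 157 against 19.2 CPM. The part of the macrophage markers in the members' values was not tested. The 8 lymphocyte markers summed to at most 3.71 CPM, the 6 mast cell and basophil markers to at most 1.54 CPM and the 10 stromal and osteoblast markers to at most 37.6 CPM. Neutrophil and progenitor markers summed to 93.9 to 118 CPM in unstimulated WT and Mir182ΔM/ΔM, to 22.2 to 22.6 CPM in WT with RANKL and to 7.19 to 7.40 CPM in Mir182ΔM/ΔM with RANKL.

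**Figure D1:**
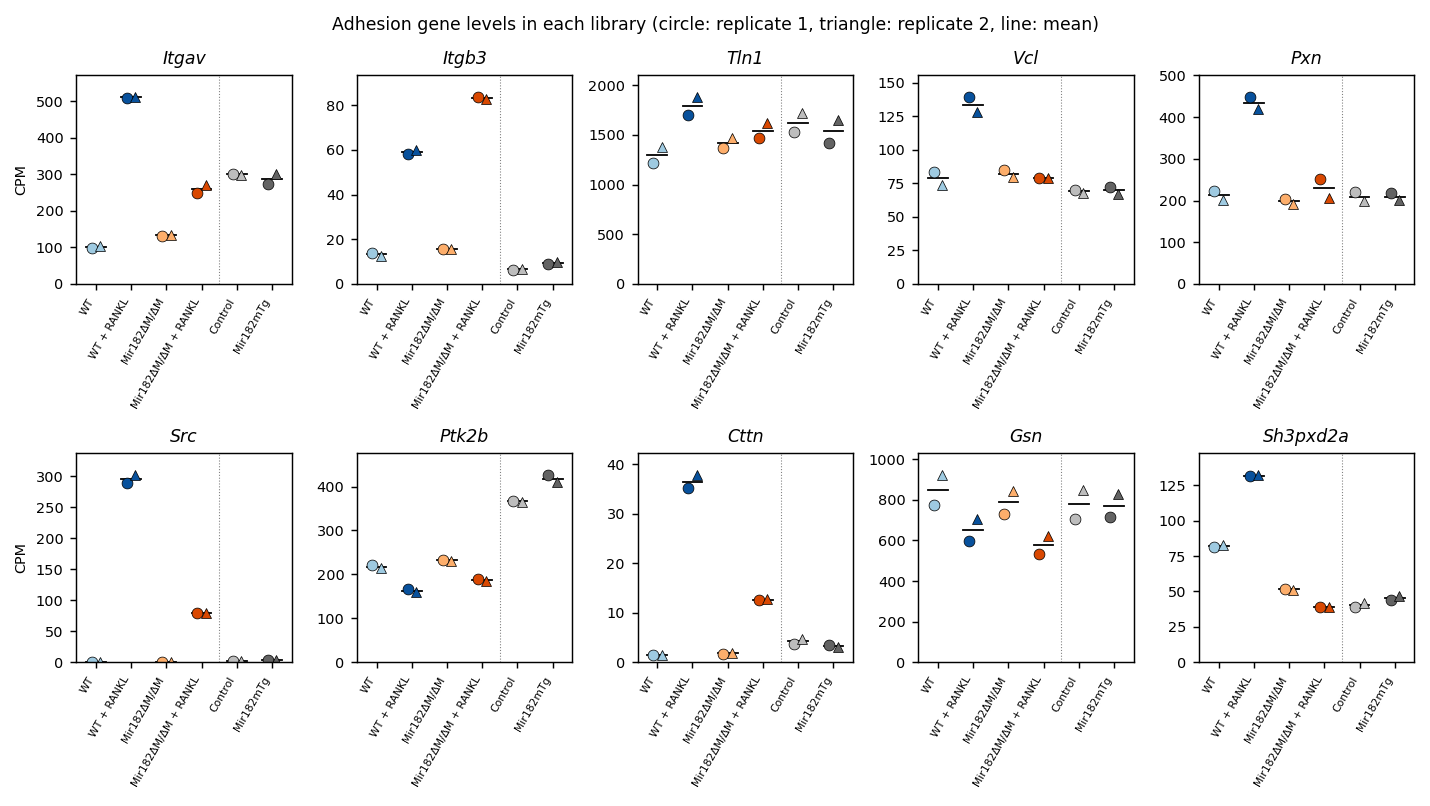
CPM of each of the 10 genes in each of the 12 libraries, on linear axes that start at 0, by condition. Circles are replicate 1, triangles replicate 2 and black lines the mean of both, and the dotted line parts the loss-of-function from the gain-of-function libraries. Itgav, Tln1, Vcl, Pxn, Src, Cttn and Sh3pxd2a had their highest mean in WT with RANKL, while Itgb3 was highest in Mir182ΔM/ΔM with RANKL, at 82.6 and 83.7 CPM.

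RANKL raised 8 of the 10 genes in WT BMMs and lowered the other two. Src and Cttn rose most, from 1.02 and 1.51 CPM on average to 295 and 36.5 CPM, the integrin subunits rose several-fold, and the linkers and Sh3pxd2a rose by less. Among all 11673 genes tested, limma at an adjusted p under 0.05 called 40.6% higher and 22% lower, so a call alone is not particular to these genes. Their median log2 fold change was 0.89, against 0.19 for all genes tested.

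Itgav, the αv subunit that pairs with several β subunits, measured 98.4 and 103 CPM in unstimulated WT and 510 and 512 CPM with RANKL. The groups lay far apart, and the log2 fold change was 2.33 ± 0.0642 (SE, n = 2 libraries a group, limma adjusted p = 2.81e-07). Itgb3, the β3 subunit, measured 14.0 and 12.4 CPM without RANKL and 58.1 and 59.8 CPM with it. Its log2 fold change was 2.08 ± 0.0806 (limma adjusted p = 1.19e-06), close to that of its partner. β3 also pairs with αIIb on platelets. The 10 markers of megakaryocytes and platelets summed to 287 to 336 CPM in unstimulated WT and to 63.2 to 76.7 CPM with RANKL, where Gp9, Gp1ba, Gp1bb and Gp5 were at 0. Most of the sum with RANKL was Pf4 and Vwf, at 36.0 and 31.55 CPM on average, against 223.5 and 79.8 CPM without RANKL. The part of these markers in the Itgb3 values was not tested.

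Src, the kinase without which osteoclasts form but do not resorb, measured 1.19 and 0.842 CPM in unstimulated WT, or 39 and 21 reads. With RANKL it measured 289 and 302 CPM, which is 290-fold higher as a ratio of means. On the log2(CPM + 1) scale, which understates the change of a gene this low, the difference was 7.20 ± 0.103 (limma adjusted p = 5.96e-08). Cttn, an activator of branched actin that Src phosphorylates, measured 1.53 and 1.48 CPM without RANKL and 35.1 and 37.8 CPM with RANKL. That is 24.2-fold as a ratio of means and 3.90 ± 0.0932 on the log2 scale (limma adjusted p = 1.95e-07). Pxn, an adaptor that docks kinases at adhesions, measured 224 and 201 CPM without RANKL and 448 and 420 CPM with it, and the log2 fold change was 1.03 ± 0.106 (limma adjusted p = 0.000136).

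The other rises were under 1 on the log2 scale. Vcl, which strengthens the link of talin to actin, went from 83.9 and 74.1 CPM to 140 and 128 CPM (log2 fold change 0.75 ± 0.0834, limma adjusted p = 0.000191). Sh3pxd2a, whose product Tks5 is a Src substrate that scaffolds podosomes, went from 81.4 and 82.7 CPM to 131 and 132 CPM (log2 fold change 0.68 ± 0.0584, limma adjusted p = 5.42e-05). Tln1, which switches integrins on, went from 1220 and 1377 CPM to 1698 and 1880 CPM (log2 fold change 0.46 ± 0.0931, limma adjusted p = 0.00386). In each of these genes both RANKL libraries lay above both unstimulated ones.

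Ptk2b and Gsn were the members that fell. Ptk2b, the Pyk2 kinase that binds Src after integrin engagement, measured 220 and 214 CPM without RANKL and 167 and 159 CPM with it (log2 fold change -0.41 ± 0.0571, limma adjusted p = 0.000622). Gsn, which severs and caps actin filaments, measured 774 and 921 CPM without RANKL and 596 and 706 CPM with it. The groups did not overlap, and the log2 fold change was -0.38 ± 0.134 (limma adjusted p = 0.0406). The call for Gsn was lost without replicate 2 of unstimulated WT (-0.26, adjusted p = 0.199) and without replicate 1 of WT with RANKL (-0.26, adjusted p = 0.203), fits that leave a replicate number unpaired. Within replicate 1 and within replicate 2 the fall was the same (-0.38 in each), and with the replicate block the adjusted p was 3.2e-11.

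The scale moves the smaller of these changes. With TMM factors, the median of all genes tested for RANKL in WT moved by -0.19, and the share of all calls that were higher went from 64.87% to 48.56%. Of the members, 7 were then higher and 2 lower, beside 28.8% and 30.5% of all genes, and Tln1 was the gene that missed the threshold (0.25, limma adjusted p = 0.0537). Src (7.03), Cttn (3.72), Itgav (2.12) and Itgb3 (1.88) kept their calls on that scale.

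Control BMMs, which were near WT with RANKL in Lyz2, gave other sizes when taken as the unstimulated group. They belong to the gain-of-function experiment, so a difference between the experiments cannot be told apart from the RANKL effect in this comparison. The counts of that experiment were scaled to CPM on the same genes, and 29.6% of 11776 genes were called higher and 23.1% lower. Of the members, 7 were called higher and 1 lower. Itgav measured 301 and 299 CPM in Control, so its log2 difference to WT with RANKL was 0.77 ± 0.0619 (limma adjusted p = 6.78e-06) instead of the 2.33 found against unstimulated WT. Itgb3 went the other way, with 6.26 and 6.88 CPM in Control and a log2 difference of 2.99 ± 0.0828 (limma adjusted p = 6e-09). The differences of Src (6.50), Cttn (2.85), Sh3pxd2a (1.67), Pxn (1.05) and Vcl (0.94) also passed the threshold, while Tln1 (0.14, adjusted p = 0.285) and Gsn (-0.26, adjusted p = 0.162) did not. Ptk2b measured 367 and 365 CPM in Control, and its difference grew to -1.16 ± 0.0485 (limma adjusted p = 8.05e-08).

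**Figure D2:**
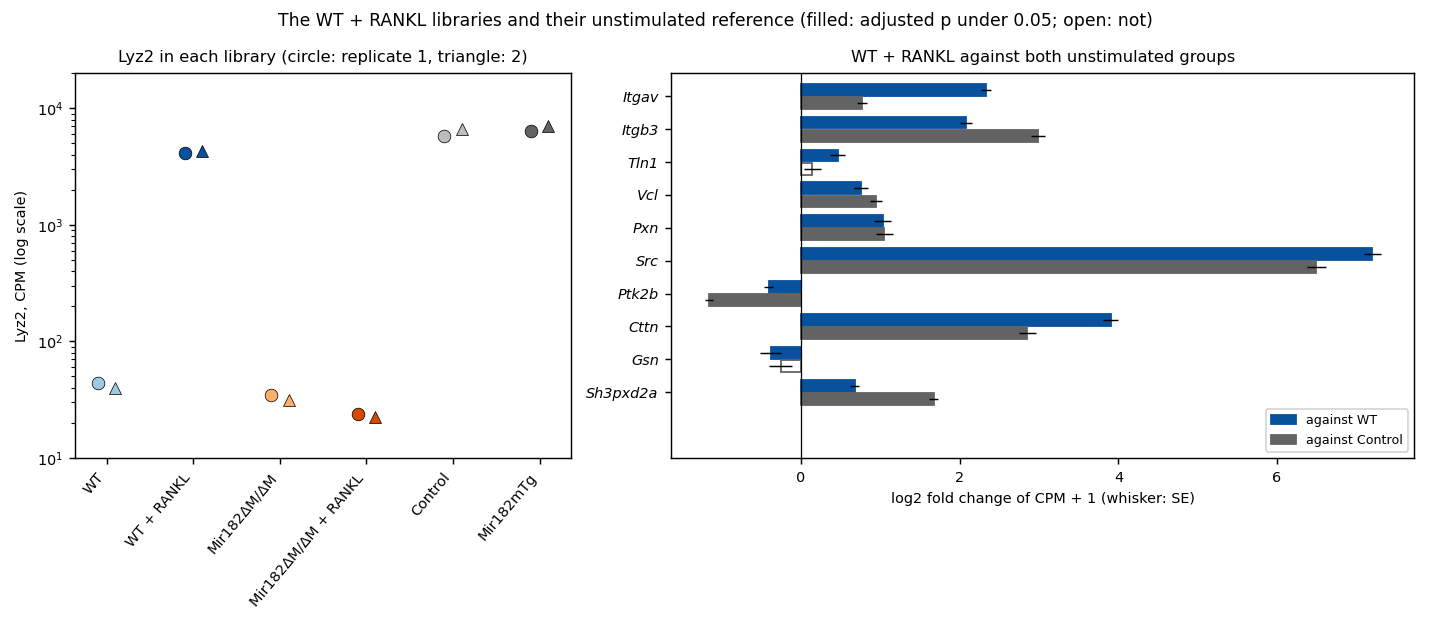
Left, Lyz2 in CPM on a log axis in each library, circles for replicate 1 and triangles for replicate 2. Right, log2 fold change of WT with RANKL against unstimulated WT (blue) and against Control (grey) with SE, where Itgav goes from 2.33 to 0.77 and Tln1 and Gsn are open against Control because they missed an adjusted p of 0.05.

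In Mir182ΔM/ΔM BMMs, RANKL raised Src, Itgb3, Cttn and Itgav and lowered Gsn, Sh3pxd2a and Ptk2b, while Tln1, Vcl and Pxn did not pass the test. The 4 higher and 3 lower calls of 10 stood beside 30.5% higher and 26.3% lower of all genes tested. The median log2 fold change of the members was 0.16, against 0.05 for all genes.

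Itgb3 measured 15.7 and 15.6 CPM in unstimulated Mir182ΔM/ΔM and 83.7 and 82.6 CPM with RANKL. The log2 fold change was 2.34 ± 0.0806 (limma adjusted p = 9.51e-07). Src went from 0.888 and 0.821 CPM to 78.8 and 79.5 CPM, 92.7-fold as a ratio of means and 5.43 ± 0.103 on the log2 scale (limma adjusted p = 1.77e-07). Cttn went from 1.66 and 1.90 CPM to 12.6 and 12.7 CPM, which is 2.30 ± 0.0932 on the log2 scale (limma adjusted p = 1.9e-06). All 3 genes thus rose severalfold in cells with the deletion. Itgav rose by less, from 132 and 134 CPM to 248 and 270 CPM (log2 fold change 0.96 ± 0.0642, limma adjusted p = 1.85e-05).

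Sh3pxd2a moved in opposite directions in WT and Mir182ΔM/ΔM. In Mir182ΔM/ΔM it fell from 51.9 and 51.2 CPM to 38.7 and 39.1 CPM, which is -0.40 ± 0.0584 on the log2 scale (limma adjusted p = 0.000962). Ptk2b fell from 234 and 231 CPM to 189 and 186 CPM (log2 fold change -0.31 ± 0.0571, limma adjusted p = 0.00288). Gsn went from 731 and 845 CPM to 532 and 622 CPM (log2 fold change -0.45 ± 0.134, limma adjusted p = 0.024). That call was lost without replicate 2 of unstimulated Mir182ΔM/ΔM (adjusted p = 0.128) or without replicate 1 with RANKL (adjusted p = 0.132), and held with the replicate block (adjusted p = 2.27e-12).

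Vcl measured 85.0 and 79.8 CPM before and 79.4 and 79.2 CPM after RANKL in Mir182ΔM/ΔM (log2 fold change -0.05 ± 0.0834, limma adjusted p = 0.604). Pxn measured 204 and 192 CPM before and 252 and 207 CPM after (0.20 ± 0.106, adjusted p = 0.145). Tln1 measured 1368 and 1469 CPM before and 1469 and 1615 CPM after (0.12 ± 0.0931, adjusted p = 0.308). Libraries of the same replicate number deviated together in this series. The ribosomal RNA gene Rn45s stood at 742 to 1176 CPM in the replicate 1 libraries and at 9778 to 21273 CPM in those of replicate 2. Its part in the members' values was not tested. A limma fit that took the replicate number as a block called Pxn (adjusted p = 7.97e-05) and Tln1 (adjusted p = 0.00046) higher but not Vcl (adjusted p = 0.246). That fit called 42.8% of all genes higher and 36.2% lower.

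**Figure D3:**
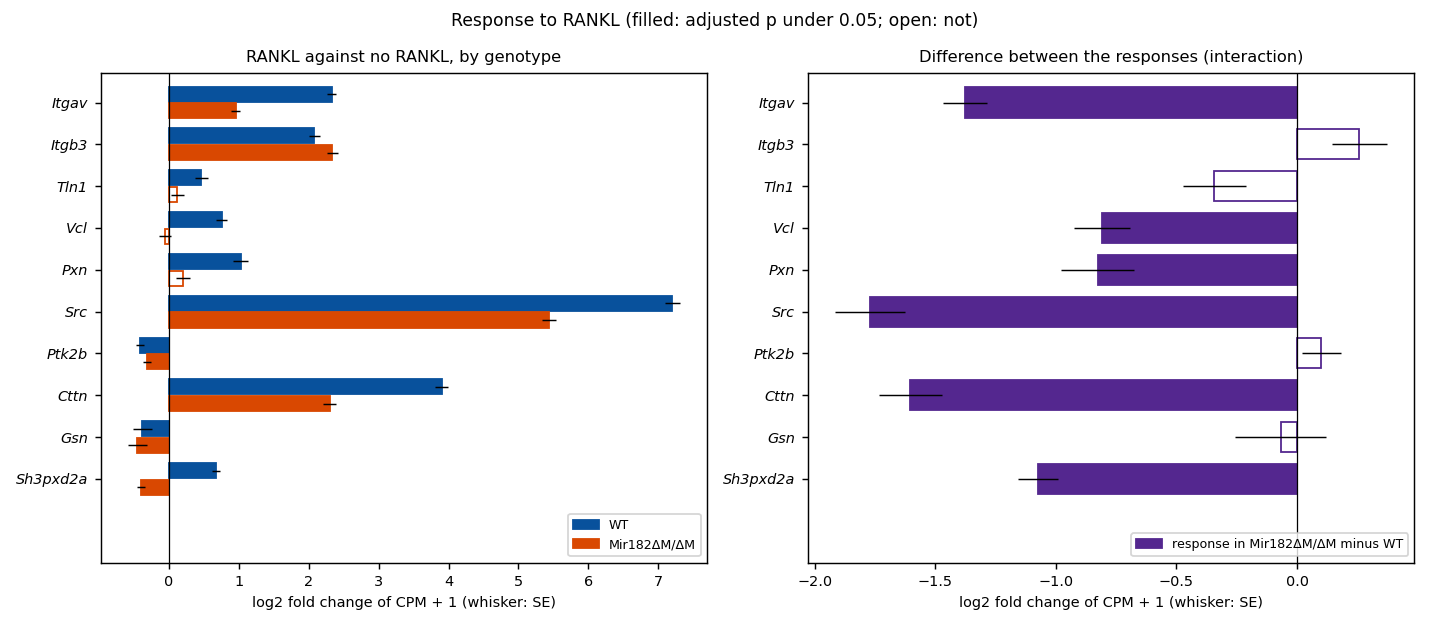
Left, log2 fold change of CPM + 1 with RANKL against none in WT (blue) and Mir182ΔM/ΔM (orange), whiskers for the SE. Right, the response in Mir182ΔM/ΔM minus that in WT, with filled bars past an adjusted p of 0.05, where the 6 filled bars all point to a smaller or opposite response and range from -1.77 for Src to -0.81 for Vcl.

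The test of the difference between the responses called 6 members lower in Mir182ΔM/ΔM and 0 higher, beside 17.2% lower and 7.46% higher of all genes tested (limma). At an unadjusted p under 0.05 the counts were 7 lower and 0 higher, beside 26.4% and 10.2% of all genes, while edgeR on the reads recovered from the CPM gave 6 and 1 (8.84% and 8.97% of its genes) and DESeq2 gave 6 and 0 (6.13% and 6.85%). The median difference of the members was -0.82 on the log2 scale, against -0.15 for all genes. The interaction of Src was -1.77 ± 0.145 on the log2 scale (limma adjusted p = 0.000246). It was -1.60 ± 0.132 for Cttn (adjusted p = 0.000248), -1.38 ± 0.0907 for Itgav (0.000115) and -1.07 ± 0.0826 for Sh3pxd2a (2e-04). It was -0.83 ± 0.150 for Pxn (adjusted p = 0.00728) and -0.81 ± 0.118 for Vcl (0.00279). Each of these values had the same sign within replicate 1 and within replicate 2. With TMM factors the median of all interactions moved by 0.16 and the higher share of all calls from 30.3% to 49.28%, and the same 6 members were called lower, from -1.61 for Src to -0.64 for Vcl, beside 10.9% of all genes.

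Itgb3 differed from its partner in this test. Its interaction was 0.26 ± 0.114 (limma adjusted p = 0.151), and with the replicate block the same value had an adjusted p of 0.0139, in a fit that called 16.1% of genes higher and 42.8% lower. With TMM factors it was 0.42 (adjusted p = 0.0362), and Ptk2b was then also called (0.27, adjusted p = 0.0483), beside 10.6% of all genes higher. Tln1 had an interaction of -0.34 ± 0.132 (adjusted p = 0.105, with the replicate block 1.72e-07). Gsn had -0.07 ± 0.190 (adjusted p = 0.839).

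After RANKL, 6 of the 10 members were lower and 2 higher in Mir182ΔM/ΔM than in WT. The lower ones were Src, Sh3pxd2a, Cttn, Itgav, Pxn and Vcl, and the higher ones Itgb3 and Ptk2b. Of all genes tested, 30.9% were lower and 14.3% higher. The median log2 fold change of the members was -0.84, against -0.14 for all genes.

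The αvβ3 subunits parted. Itgav measured 510 and 512 CPM in WT and 248 and 270 CPM in Mir182ΔM/ΔM, which is -0.98 ± 0.0642 on the log2 scale (limma adjusted p = 3.26e-05). Itgb3 measured 58.1 and 59.8 CPM in WT and 83.7 and 82.6 CPM in Mir182ΔM/ΔM, which is 0.49 ± 0.0806 on the log2 scale (adjusted p = 0.00246). The study's quantitative PCR after 5 days of RANKL gave the opposite direction, with Itgb3 lower in Mir182ΔM/ΔM than in WT. Why the measurements differ was not tested. Per length, Itgav stood at 72.5 ± 0.164 RPKM and Itgb3 at 10.2 ± 0.200 RPKM in WT (CPM per kilobase of transcript, SD, n = 2), and at 36.8 ± 2.22 and 14.4 ± 0.130 RPKM in Mir182ΔM/ΔM. Itgav was thus the more abundant transcript of the pair in both genotypes. Endothelial cells also carry αvβ3, and the 5 endothelial markers summed to 24.5 to 26.5 CPM in WT with RANKL and to 108 to 109 CPM in Mir182ΔM/ΔM with RANKL. Nearly all of that was Kdr (24.9 and 101 CPM on average), with Cdh5 at 0.300 and 3.78 CPM, and their part in the Itgb3 difference was not tested.

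Src measured 289 and 302 CPM in WT and 78.8 and 79.5 CPM in Mir182ΔM/ΔM, which is 3.73-fold lower as a ratio of means (log2 fold change -1.89 ± 0.103, limma adjusted p = 1.4e-05). Sh3pxd2a measured 131 and 132 CPM against 38.7 and 39.1 CPM, 3.38-fold lower (log2 fold change -1.73 ± 0.0584, adjusted p = 2.06e-06). Cttn measured 35.1 and 37.8 CPM against 12.6 and 12.7 CPM, 2.88-fold lower (log2 fold change -1.45 ± 0.0932, adjusted p = 2.94e-05). These were the largest differences of the 10 genes, and within each the libraries of a genotype lay close together.

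Pxn measured 448 and 420 CPM in WT and 252 and 207 CPM in Mir182ΔM/ΔM (log2 fold change -0.92 ± 0.106, limma adjusted p = 0.000451). Vcl measured 140 and 128 CPM against 79.4 and 79.2 CPM (log2 fold change -0.75 ± 0.0834, adjusted p = 0.000394). Vcl and Cttn, both lower here, are among the 3 members whose 3′ UTRs hold the letters of the miR-182 seed match printed above. The third, Tln1, was not called (limma adjusted p = 0.102), and Src, Sh3pxd2a, Itgav and Pxn were lower without a match. Whether a match bears on these levels was not tested. The Vcl annotation shares 25.5% of its exon bases with Ap3m1 on the other strand, and the strand used in counting is not given in the sources used here, so reads there are uncertain. Ap3m1 measured 101 and 97.1 CPM in WT and 103 and 103 CPM in Mir182ΔM/ΔM (log2 fold change 0.06 ± 0.0600, adjusted p = 0.467).

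Ptk2b measured 167 and 159 CPM in WT and 189 and 186 CPM in Mir182ΔM/ΔM (log2 fold change 0.20 ± 0.0571, limma adjusted p = 0.026). This call was lost when any library of WT with RANKL, Mir182ΔM/ΔM with RANKL or unstimulated Mir182ΔM/ΔM was left out (adjusted p = 0.0515 to 0.146), and held with the replicate block (adjusted p = 9.18e-06). Tln1 measured 1698 and 1880 CPM against 1469 and 1615 CPM (-0.21 ± 0.0931, adjusted p = 0.102), and Gsn 596 and 706 CPM against 532 and 622 CPM (-0.17 ± 0.134, adjusted p = 0.334). With the replicate block both were called lower (Tln1 adjusted p = 5.48e-07, Gsn 9.08e-06), in a fit that called 49.8% of all genes lower and 23.4% higher. With TMM factors the median of all genes moved by 0.14 and the higher share of all calls from 31.58% to 50.9%, while the same 2 members were higher and the same 6 lower, beside 20.9% and 20.2% of all genes. The values then ran from -1.73 for Src to 0.64 for Itgb3.

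Without RANKL, Mir182ΔM/ΔM and WT BMMs differed in few of these genes. limma called Itgav higher and Sh3pxd2a lower, beside 2.72% higher and 1.11% lower of all genes tested. Sh3pxd2a measured 81.4 and 82.7 CPM in WT and 51.9 and 51.2 CPM in Mir182ΔM/ΔM, which is -0.66 ± 0.0584 on the log2 scale (adjusted p = 0.00231). It was the member that was lower in Mir182ΔM/ΔM in both states, and its difference with RANKL was the larger one, as the interaction above gives. Itgav measured 98.4 and 103 CPM in WT and 132 and 134 CPM in Mir182ΔM/ΔM, which is 0.40 ± 0.0642 on the log2 scale (adjusted p = 0.0214), opposite in sign to that after RANKL. Leaving out any library of unstimulated WT, unstimulated Mir182ΔM/ΔM or WT with RANKL ended the call of Itgav (adjusted p = 0.0505 to 0.156), which held with the replicate block (adjusted p = 1.3e-08).

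Among the other members without RANKL, Itgb3 measured 14.0 and 12.4 CPM in WT and 15.7 and 15.6 CPM in Mir182ΔM/ΔM (log2 fold change 0.23 ± 0.0806, limma adjusted p = 0.214). Src and Cttn were near 1 to 2 CPM in both genotypes and did not pass (adjusted p = 0.704 and 0.525). With the replicate block, 4 members were called higher and 2 lower, in a fit that called 18.6% of all genes higher and 12.7% lower. The members added were Itgb3 (adjusted p = 0.00588), Tln1 (0.13, adjusted p = 0.000955), Ptk2b (0.10, adjusted p = 0.0186) and, lower, Gsn (-0.10, adjusted p = 0.00562).

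**Figure D4:**
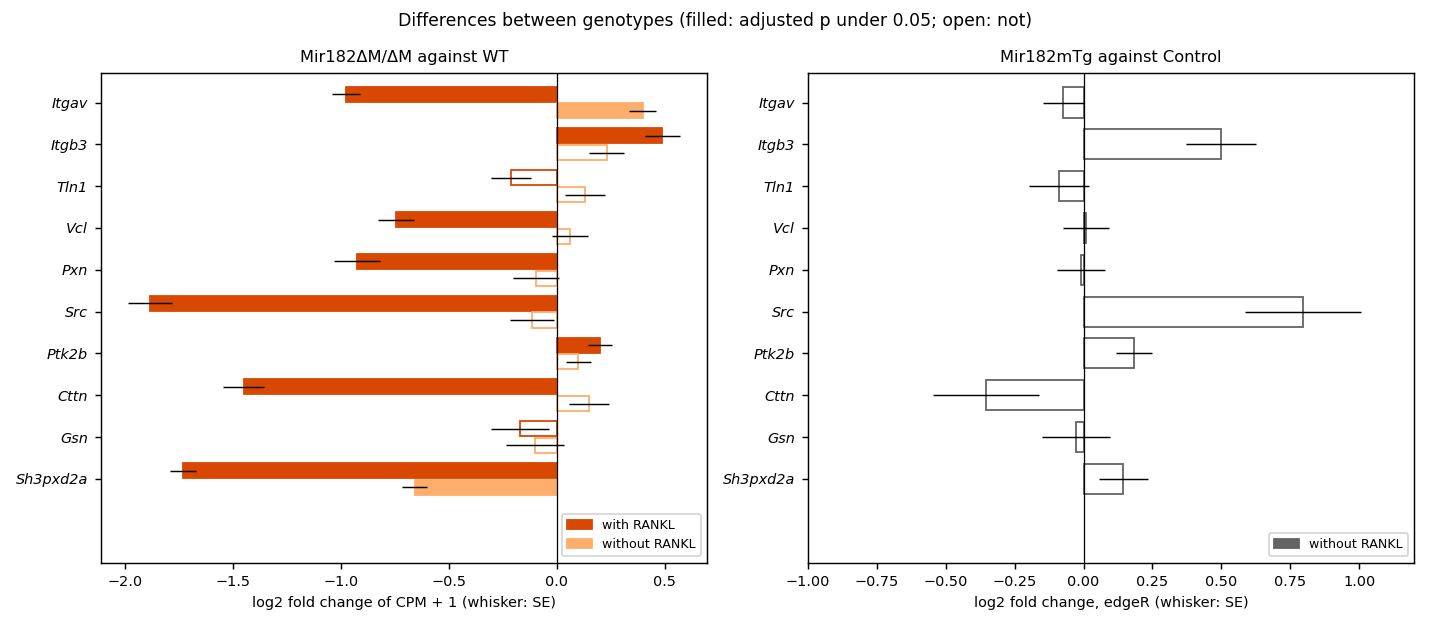
Log2 fold change with SE whiskers, for Mir182ΔM/ΔM against WT with and without RANKL (left, limma on CPM + 1) and for Mir182mTg against Control (right, edgeR). Filled bars passed an adjusted p of 0.05, and the bars of Mir182mTg are all open, the largest being Src at 0.80 and Itgb3 at 0.50.

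In the gain-of-function experiment no member passed the test. edgeR called 0 of the 10 higher or lower in Mir182mTg than in Control, beside 0.0993% higher and 0.157% lower of the 12081 genes tested, 31 genes in all, and 863 genes had an unadjusted p under 0.05. At an unadjusted p under 0.05, 3 members were higher, Itgb3, Src and Ptk2b, beside 3.89% of all genes higher and 3.25% lower. DESeq2 called 0 members, and limma on all 12 libraries called 2 higher, Itgb3 and Src. DESeq2 called 0.358% of genes higher and 0.421% lower, and that limma fit 1.1% and 0.866%. The median log2 fold change was -0.0011 in the members and -0.0016 in all genes tested. The 10 markers of neutrophils and progenitors, 9 of them listed, summed to 53.1 and 53.2 CPM in Control and to 113 and 122 CPM in Mir182mTg, and their part in these values was not tested.

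Itgb3 measured 6.26 and 6.88 CPM in Control and 8.93 and 9.74 CPM in Mir182mTg (log2 fold change 0.50 ± 0.126, edgeR adjusted p = 0.391). Src measured 2.68 and 1.93 CPM in Control and 4.24 and 3.87 CPM in Mir182mTg (0.80 ± 0.210, adjusted p = 0.415). Ptk2b measured 367 and 365 CPM in Control and 426 and 410 CPM in Mir182mTg, the highest level of this kinase in the series (0.18 ± 0.0667, adjusted p = 0.645). With the replicate block edgeR called these 3 genes higher (adjusted p = 0.00321 for Itgb3, 0.00337 for Src and 0.000355 for Ptk2b) and Tln1 lower (-0.09, adjusted p = 0.029), while calling 6.94% of all genes higher and 8.15% lower.

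Cttn, with the longest seed match, measured 3.67 and 4.76 CPM in Control and 3.42 and 3.19 CPM in Mir182mTg (log2 fold change -0.35 ± 0.192, edgeR adjusted p = 0.907). Its libraries did not overlap, yet the difference did not pass the test. Vcl measured 70.1 and 68.1 CPM against 72.7 and 67.1 CPM (0.01 ± 0.0831, adjusted p = 1). Sh3pxd2a measured 39.3 and 41.9 CPM against 43.7 and 46.7 CPM (0.14 ± 0.0887, adjusted p = 0.963). Itgav, Pxn and Gsn had overlapping libraries and log2 fold changes between -0.07 and -0.01.

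Across all 6 conditions the members differed widely in how far their level ranged. The condition means of Src spanned 7.32 on the log2(CPM + 1) scale, those of Cttn 3.90, Itgb3 3.48 and Itgav 2.33. Sh3pxd2a spanned 1.73, Ptk2b 1.35, Pxn 1.13, Vcl 0.94, Gsn 0.55 and Tln1 0.46. Per length, Gsn and Tln1 were the most abundant members in WT with RANKL, at 221 ± 26.5 and 209 ± 15.1 RPKM (SD, n = 2), and these neighbours in the order overlapped. Src moved from the last place of the 10 in unstimulated WT, at 0.262 ± 0.0638 RPKM, to the fourth with RANKL, at 75.9 ± 2.31 RPKM, next to Itgav. In Mir182ΔM/ΔM with RANKL it held the sixth place, at 20.4 ± 0.126 RPKM.

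For the members whose means spanned more than 1, the genes with the most similar pattern over the 12 libraries were sought among 11776 genes by Pearson's r of log2(CPM + 1), as a description, since libraries of a condition share their values. Closest to Src were St3gal1 (r = 0.999), the osteoclast phosphatase gene Acp5 (r = 0.999) and Dock5 (r = 0.997), an activator of Rac. Among those closest to Cttn were Chpf (0.993) and Slc9b2 (0.990). Itgb3 was closest to Serpinb8 (0.988), Plcb2 (0.988) and Tnfsf15 (0.986), none of which was among the 3 closest to Itgav, namely Gars (0.986), Vim (0.984) and Ptgfrn (0.984). Among the members, Src and Cttn had r = 0.977 over the 12 libraries, Vcl and Pxn 0.934, and Itgav and Itgb3 0.354. Among those closest to Pxn were Diras1 (0.986) and Kynu (0.985), which averaged 1.08 and 1.57 CPM in WT with RANKL. In the other conditions they averaged at most 0.0821 and 0.235 CPM. Both passed the filter only through WT with RANKL, where Pxn was highest, so a high r was built in and carries no weight. Chpf and Tnfsf15 also averaged under 1 CPM in every condition without RANKL. Ptk2b was closest to Procr (0.996), Eef1a2 (0.991) and Gcnt1 (0.990), and Sh3pxd2a to Kdm5b (0.985), Tfec (0.974) and Mturn (0.974).

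RefSeq's table of promoters (GRCm38.p6, 250 bases before to 50 after the start) held 5 of the members. Src and Itgav are printed because they rose most with RANKL among those 5 and were lower in Mir182ΔM/ΔM after RANKL. Capitals mark matches on either strand to GAGGAA, the core bound by the macrophage factor PU.1, and GGGCGG, the GC box, so that TTCCTC and CCGCCC are the same letters on the other strand.
Src promoter chr2:157424043-157424342, plus strand: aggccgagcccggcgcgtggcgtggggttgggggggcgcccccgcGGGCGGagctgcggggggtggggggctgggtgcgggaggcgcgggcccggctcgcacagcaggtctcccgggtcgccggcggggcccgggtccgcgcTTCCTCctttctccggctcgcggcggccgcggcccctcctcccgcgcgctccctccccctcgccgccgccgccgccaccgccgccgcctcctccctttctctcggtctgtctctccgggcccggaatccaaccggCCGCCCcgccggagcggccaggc
Itgav promoter chr2:83724147-83724446, plus strand: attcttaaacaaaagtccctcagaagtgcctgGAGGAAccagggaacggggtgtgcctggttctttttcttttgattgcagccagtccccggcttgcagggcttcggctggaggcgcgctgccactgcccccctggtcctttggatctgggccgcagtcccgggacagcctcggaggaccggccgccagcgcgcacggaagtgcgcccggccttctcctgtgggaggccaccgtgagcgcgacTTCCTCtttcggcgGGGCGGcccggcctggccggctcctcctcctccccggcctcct
Src held 1 match to GAGGAA and 2 to GGGCGG, and Itgav 2 and 1. Of all 32851 promoters in the table, 28.3% held GAGGAA and 35.7% GGGCGG. The letters TGANTCA of AP-1 (7.81% of all promoters), GGAAA of NFAT (61.3%) and CACGTG of the E-box (7.15%) were also searched on both strands and are not in either window. GAGGAA followed by A would also count as GGAAA. The other members in the table are Gsn, Vcl and Tln1, and the matches describe letters in these windows only. The Src window lies inside the gene as annotated by GENCODE, which starts at chr2:157418444, so it does not cover the first annotated start.

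The wider adhesion machinery was counted in 5 lists of other genes, of which 113 were tested. With RANKL, 24 of the 113 were higher and 38 lower in Mir182ΔM/ΔM than in WT, beside 14.3% and 30.9% of all genes, with a median log2 fold change of -0.10 against -0.14 for all genes. In WT, RANKL raised 37 and lowered 28 of them, beside 40.6% and 22% of all genes, and in Mir182ΔM/ΔM it raised 34 and lowered 35, beside 30.5% and 26.3%. The balance turned with the scaling. edgeR on recovered reads, which uses TMM, tested 119 and called 31 higher and 35 lower in Mir182ΔM/ΔM after RANKL (median 0.05, all genes 19.8% and 19.5%), and 35 higher and 41 lower for RANKL in WT (median -0.16, all genes 28.1% and 29.3%). The lists were chosen with earlier results known and get no test of their own.

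**Figure D5:**
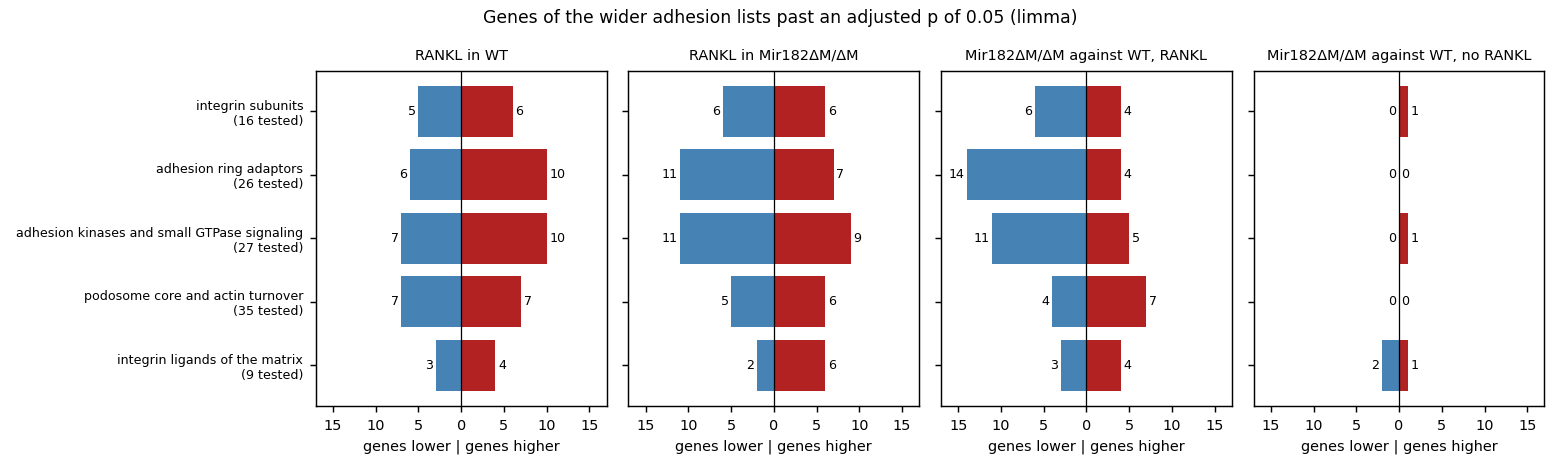
Number of genes called lower (blue, left) and higher (red, right) at a limma adjusted p under 0.05 in each of 5 lists of adhesion genes, in 4 comparisons. Among adhesion ring adaptors 14 of 26 were lower in Mir182ΔM/ΔM with RANKL, and in podosome core and actin turnover 4 of 35 were, beside 30.9% of all genes.

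Of 16 other integrin subunits tested, 4 were higher and 6 lower in Mir182ΔM/ΔM with RANKL, with a median of -0.13 against -0.14 for all genes (14.3% higher, 30.9% lower). Itga2, a collagen receptor subunit, averaged 4.20 CPM against 34.0 CPM in WT (log2 fold change -2.75 ± 0.102, limma adjusted p = 2.95e-06), and Itgb7 averaged 23.6 against 105 CPM (-2.12 ± 0.135, adjusted p = 2.85e-05). Itga5, the fibronectin receptor subunit, averaged 442 against 237 CPM (0.90 ± 0.0919, adjusted p = 0.000253). Itgb5, another partner of αv, fell with RANKL in both genotypes, from 241 to 99.9 CPM in WT and from 216 to 77.1 CPM in Mir182ΔM/ΔM (adjusted p = 2.96e-05 and 1.66e-05), while Itgb3 rose in both.

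Of 26 adhesion ring adaptors tested, 4 were higher and 14 lower in Mir182ΔM/ΔM with RANKL, beside the same shares of all genes, with a median of -0.35. With edgeR on recovered reads 5 were higher and 13 lower of 29, with a median of -0.0003, beside 19.8% and 19.5% of all genes. Parvg, which binds integrin-linked kinase in blood cells, averaged 8.55 against 35.5 CPM (log2 fold change -1.93 ± 0.0755, limma adjusted p = 3.9e-06), and Pstpip1 105 against 319 CPM (-1.60 ± 0.0956, adjusted p = 2.13e-05). Evl, of the Ena/VASP family that elongates actin, averaged 113 against 61.1 CPM (0.87 ± 0.126, adjusted p = 0.00129). Bcar1, the p130Cas adaptor of Src, rose with RANKL from 0.0859 to 8.59 CPM in WT and from 0.149 to 4.32 CPM in Mir182ΔM/ΔM.

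Of 27 kinases and small GTPase regulators tested, 5 were higher and 11 lower in Mir182ΔM/ΔM with RANKL, beside 14.3% and 30.9% of all genes. The median was -0.13, against -0.14 for all genes. With edgeR 7 were higher and 9 lower, beside 19.8% and 19.5% of all genes. Rac2, the blood-cell Rac GTPase, averaged 194 against 784 CPM (log2 fold change -2.01 ± 0.0617, limma adjusted p = 1.39e-06). Ptk2, the FAK kinase and closest relative of Ptk2b, averaged 102 against 33.1 CPM (1.59 ± 0.0761, adjusted p = 9.17e-06), so that both FAK family genes were higher there. Ptk2 was also higher without RANKL, at 42.5 against 30.2 CPM (0.48 ± 0.0761, adjusted p = 0.0204). Fgr, of the Src family, rose with RANKL from 3.03 to 90.0 CPM in WT and from 3.20 to 151 CPM in Mir182ΔM/ΔM.

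Of 35 genes of the podosome core and actin turnover, 7 were higher, 4 lower and 24 did not pass in Mir182ΔM/ΔM with RANKL. Of all genes, 14.3% were higher and 30.9% lower. With edgeR 10 of the 35 were higher and 3 lower, beside 19.8% and 19.5% of all genes. Tmsb4x, the actin-monomer binder thymosin β4, averaged 5216 against 2065 CPM (log2 fold change 1.33 ± 0.199, limma adjusted p = 0.00155), and Lsp1 48.8 against 128 CPM (-1.37 ± 0.173, adjusted p = 0.000694). Myo10, an unconventional myosin of filopodia, rose with RANKL in both genotypes, from 42.5 to 361 CPM and from 32.3 to 241 CPM. Of 9 matrix ligands and associated proteases, 4 were higher and 3 lower, beside 14.3% and 30.9% of all genes. Mmp14, a membrane-bound collagenase, averaged 31.2 against 287 CPM (-3.16 ± 0.106, adjusted p = 2.06e-06), while Adam8 averaged 2161 against 797 CPM (1.44 ± 0.0699, adjusted p = 9.5e-06). Spp1, osteopontin, a ligand of αvβ3, fell with RANKL from 2315 to 689 CPM in WT and from 2558 to 1161 CPM in Mir182ΔM/ΔM.

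Without RANKL, 3 of the 113 were higher in Mir182ΔM/ΔM (Adam8, Itga8 and Ptk2) and 2 lower (Edil3 and Mmp14), beside 2.72% and 1.11% of all genes. In Mir182mTg, edgeR called Itga6 lower, at 478 against 795 CPM in Control (log2 fold change -0.74 ± 0.0647, adjusted p = 0.0364), and 0 higher, beside 0.157% and 0.0993% of all genes. At an unadjusted p under 0.05, 5 were higher and 5 lower, beside 3.89% and 3.25% of all genes. DESeq2 called 1 higher and 1 lower (0.358% and 0.421% of all genes), and limma on all 12 libraries 2 and 2 (1.1% and 0.866%).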

How the data were processed

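RNA-seq libraries of 12 BMM samples in 6 conditions were read from 1 deposited table each. For the 8 loss-of-function libraries the authors deposited CPM that sum to 1000000, and for the 4 gain-of-function libraries raw counts. Tables of replicate 1 also hold RPKM, which the authors made by dividing CPM by a gene length, and that length gave the RPKM of replicate 2. Per the submitters' processing notes the reads were mapped to mm10 with TopHat or HISAT2 and summarised with Cufflinks, HTSeq and edgeR. Strand and tool versions are not given in the sources used here. Low CPM values were whole multiples of 1 read for 100% of values (tolerance 0.01), so reads could be recovered. Of the 24421 rows, 27 names altered to dates or not unique were dropped.

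Loss-of-function contrasts were fitted with limma 3.58.1 (trend) on log2(CPM + 1) for 11673 genes that reached 1 CPM in 2 or more of the 8 libraries, 4 groups in 1 fit. Mir182mTg was compared with Control by the edgeR 4.0.16 quasi-likelihood test (TMM, filterByExpr, 12081 genes). Benjamini-Hochberg adjusted p under 0.05 made a call, in R 4.3.3. edgeR on recovered reads called 2481 genes higher and 2448 lower in Mir182ΔM/ΔM after RANKL. Deviations of same-numbered libraries correlated between conditions (r = 0.69 to 0.754 over 6 pairs of loss-of-function conditions, 0.745 for Control with Mir182mTg), and the processing notes differ by replicate number, so the numbers were taken as pairs and a replicate block was an alternative. No replicates were duplicates. Other alternatives were TMM factors, DESeq2 1.42.0, filters, pseudocounts, fewer or more libraries, Control as reference and leaving out each library. Fits were tested on simulated counts in which same-numbered libraries did not deviate together, so that check does not cover the replicate structure seen here.

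Named genes were all members, up to 2 genes a direction from each list by log2 fold change among calls with groups that do not overlap, and the 3 closest patterns; a few genes the rule names are not reported here. Members and lists were chosen with earlier results of these data known.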

Additional observations from a re-analysis of the deposited data

Results flagged for a closer look

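The response to RANKL differed between the genotypes in 6 of the 10 genes by limma's interaction test. All 6 were called lower, beside 17.2% lower and 7.46% higher of all genes tested. The response in Mir182ΔM/ΔM minus that in WT, on log2(CPM + 1), was -1.38 for Itgav (adjusted p = 0.000115), -0.81 for Vcl (0.00279), -0.83 for Pxn (0.00728), -1.77 for Src (0.000246), -1.60 for Cttn (0.000248) and -1.07 for Sh3pxd2a (2e-04). Sh3pxd2a is the gene of these whose responses were called in opposite directions, 0.68 in WT and -0.40 in Mir182ΔM/ΔM. All 6 values use the WT libraries with RANKL, in which Lyz2 stood at 4117 and 4288 CPM against at most 44.0 CPM in the rest of that experiment. The part of that difference was not tested.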

How the results depend on the processing

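Members called, higher and lower, were 2 and 6 for Mir182ΔM/ΔM against WT after RANKL, and 1 higher with only the libraries compared. Without RANKL they were 1 and 1, and 4 and 2 with the replicate block, 4 and 3 with the block and TMM factors or with edgeR on recovered reads and the block, and 0 higher with only the libraries compared. For RANKL in WT 2 were lower, and 1 without a filter, with only the libraries compared or with Control as reference. For the interaction 0 were higher, and 2 with TMM factors, 1 with the replicate block, 3 with the block and TMM factors, 1 with edgeR and 3 with edgeR and the block. In Mir182mTg 0 were called, 2 higher with limma on all 12 libraries, and 3 higher and 1 lower with the replicate block. Leaving out 1 library gave 1 to 2 higher after RANKL, 0 to 1 without RANKL, 1 to 2 lower for RANKL in WT, and 4 to 5 higher and 2 to 3 lower for RANKL in Mir182ΔM/ΔM. Other member counts did not change by over 1.5 times.

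The interaction of Gsn turned positive with TMM factors (0.10), the block with TMM factors (0.10, adjusted p = 0.0288), edgeR (0.10), edgeR with the block (0.10, adjusted p = 0.0253) and DESeq2 (0.11), and ran from -0.19 to 0.057 over fits without 1 library. Over those fits other values that were not called changed sign too. Without RANKL, Vcl ran from -0.026 to 0.15, Src from -0.24 to 0.0098 and Gsn from -0.23 to 0.022. In Mir182mTg, Tln1 ran from -0.20 to 0.014, Vcl from -0.057 to 0.067, Pxn from -0.079 to 0.063 and Gsn from -0.16 to 0.12. The cause was not tested.

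Counts over all genes moved by over 1.5 times mainly with the replicate block. After RANKL 1666 higher and 3609 lower became 2737 and 5809 (2353 lower with TMM factors, 2213 with DESeq2). Without RANKL 317 and 129 became 2166 and 1477 with the block, 1949 and 1691 with the block and TMM factors, 1915 and 1775 with edgeR and the block, 73 and 31 with only the libraries compared and 527 and 231 with all 12 libraries. The interaction's 871 and 2004 became 1885 and 4993 with the block, 3164 and 2887 with the block and TMM factors, 3110 and 2817 with edgeR and the block, 1273 lower with TMM factors and 1110 with edgeR. In Mir182mTg 12 and 19 became 838 and 984 with the block, 130 and 102 with limma, 70 and 71 without a filter and 57 and 67 with DESeq2.

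With 2 libraries a group, differences such as those of Tln1 and Gsn depend on the replicate block, and Src and Cttn rested on 21 to 51 reads in the unstimulated loss-of-function libraries.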
